A study of Mus musculus with 6 samples.

Results

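Chromatin accessibility was examined at 38 mouse genes of the Toll-like receptor (TLR) and inflammasome sensing pathways, out of 21755 protein-coding genes of the GENCODE M21 annotation. The genes were taken from a named list, which was chosen with earlier results of these data known. Every deposited differential peak that overlapped a gene body or the 20 kb on either side (mm10) was assigned to that gene. The assay was run on M-MDSCs, the monocytic class of myeloid-derived suppressor cells, which are immature myeloid cells that restrain T cells in tumors. They were sorted as CD11b+Ly-6ChiLy-6G- cells from Hepa 1-6 hepatoma tumors grown in the liver of young wild-type (WT) female C57BL/6 J mice, and accessibility was read by ATAC-seq, in which a transposase inserts adapters into open DNA. There were 3 groups of 2 libraries: Vehicle, MS-275 (labelled MS275) and CXD101. Both drugs inhibit the histone deacetylases HDAC1-3, which remove acetyl groups from chromatin, and all 3 groups carried the same tumor and genotype. In the tumor experiments of the study they were injected daily at the same dose by body weight, whereas the labels give neither dose nor time. The study calls the libraries of a group biological replicates, and the labels do not say whether a library came from 1 mouse or from pooled mice.

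The deposited files are 6 lists of sites where one group had more signal than another, each called on the pooled libraries of both groups, and they hold no value per library. No spread between replicates could therefore be computed, none of the differences below has a replicate check, and whether the single libraries of the groups overlap cannot be told. The lists over vehicle are called gained, the lists of vehicle over inhibitor lost, and the list of MS-275 over CXD101 direct. The lists held 8480 MS-275 gained, 691 MS-275 lost, 284 CXD101 gained, 693 CXD101 lost and 1650 direct peaks, with 2 peaks of CXD101 over MS-275. Both deposited gained lists are shorter than the peak sets that the study's text describes, the CXD101 list by far the more so, and why was not given in the sources used here. The pooled MS-275 and CXD101 libraries were each 1.14 times as deep as the pooled vehicle libraries, and they differed from each other by a factor of 1.006. A site enters such a list only through a difference, so the lists give no level for genes without a peak.

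TLRs are membrane receptors that recognise microbial lipids, proteins and nucleic acids at the cell surface or in endosomes. Most of them pass the signal through the adaptor MyD88, IRAK kinases and TRAF6 to NF-kB, which also switches on its own inhibitors. NOD1 and NOD2 sense peptidoglycan fragments in the cytosol and signal through the kinase RIPK2, while NLRP3, NLRC4 and AIM2 assemble inflammasomes that activate caspase-1 for the release of IL-1β and IL-18. In monocytes these pathways drive the production of inflammatory cytokines.

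MS-275 gained peaks lay in the windows of 11 of the 38 members, and no CXD101 gained peak lay in any of them. The 11 genes were Tlr2, Tlr8, Cd180, Ly86, Ticam2, Irak2, Irak3, Nod1, Nlrc4, Casp1 and Casp4. They made up 28.9% of the members (95% Wilson interval 17.0 to 44.8%), beside 18.8% of all protein-coding genes with such a peak, so the share lay near the background within its counting error. The direct list had peaks at Tlr2, Tlr9, Ly86, Irak2 and Ripk2, which is 13.2% of the members (5.75 to 27.3%) beside a background of 6.68%. Irak3 was the only member with an MS-275 lost peak (2.63% of the members, 0.466 to 13.5%, background 2.93%), and Nlrp3 the only member with a CXD101 lost peak (background 3.65%). The background of the CXD101 gained list was 0.97% of protein-coding genes, and 0 of 38 members allows a share of up to 7.89%. With so short a list, the absence of CXD101 gained peaks is no sign that the members differ from other genes or that CXD101 leaves them unchanged. For CXD101 over MS-275, 0 of 38 members had a peak and the background was 0.0138%. Wilson intervals cover counting error only, and genes are not replicates of a treatment.

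**Figure D1:**
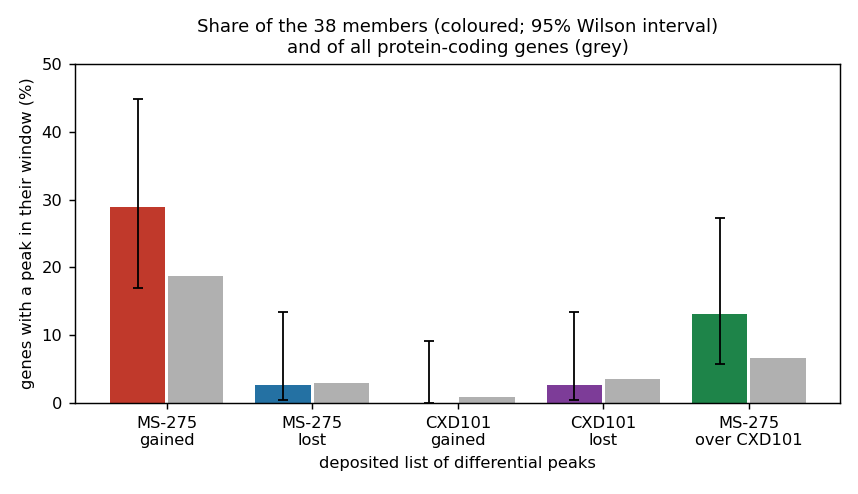
Percent of genes with at least 1 peak in the gene body or 20 kb either side, for each deposited list. Coloured bars are the 38 members with 95% Wilson intervals, and grey bars are all protein-coding genes. The members stand at 28.9% against 18.8% for MS-275 gained peaks and at 13.2% against 6.68% for direct peaks, and both grey bars lie within the members' intervals.

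A peak of any list was found at 14 of the 38 members, beside 23.9% of all protein-coding genes. The 24 members without one were Tlr1, Tlr3, Tlr4, Tlr5, Tlr6, Tlr7, Tlr11, Tlr12, Tlr13, Cd14, Ly96, Myd88, Ticam1, Tirap, Irak4, Traf3, Traf6, Map3k8, Tnfaip3, Nfkbia, Nfkbiz, Nod2, Aim2 and Pycard. They include the receptor complex for lipopolysaccharide (Tlr4, Ly96 and Cd14), the shared adaptor Myd88, and Pycard, which links inflammasome receptors to caspase-1. All 3 members that restrain or tune NF-kB (Tnfaip3, Nfkbia and Nfkbiz) were among them. The nearest MS-275 gained peaks to Nfkbiz and Tlr11 lay just beyond the window, at 21.4 kb and 23.2 kb from the gene. The smallest difference that could enter a list sets what this absence covers. At a vehicle level of 20 tags a site entered the MS-275 gained list from 1.857-fold and the CXD101 gained list from 1.952-fold, and at a level of 10 tags from 2.182-fold and 2.364-fold.

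**Figure D2:**
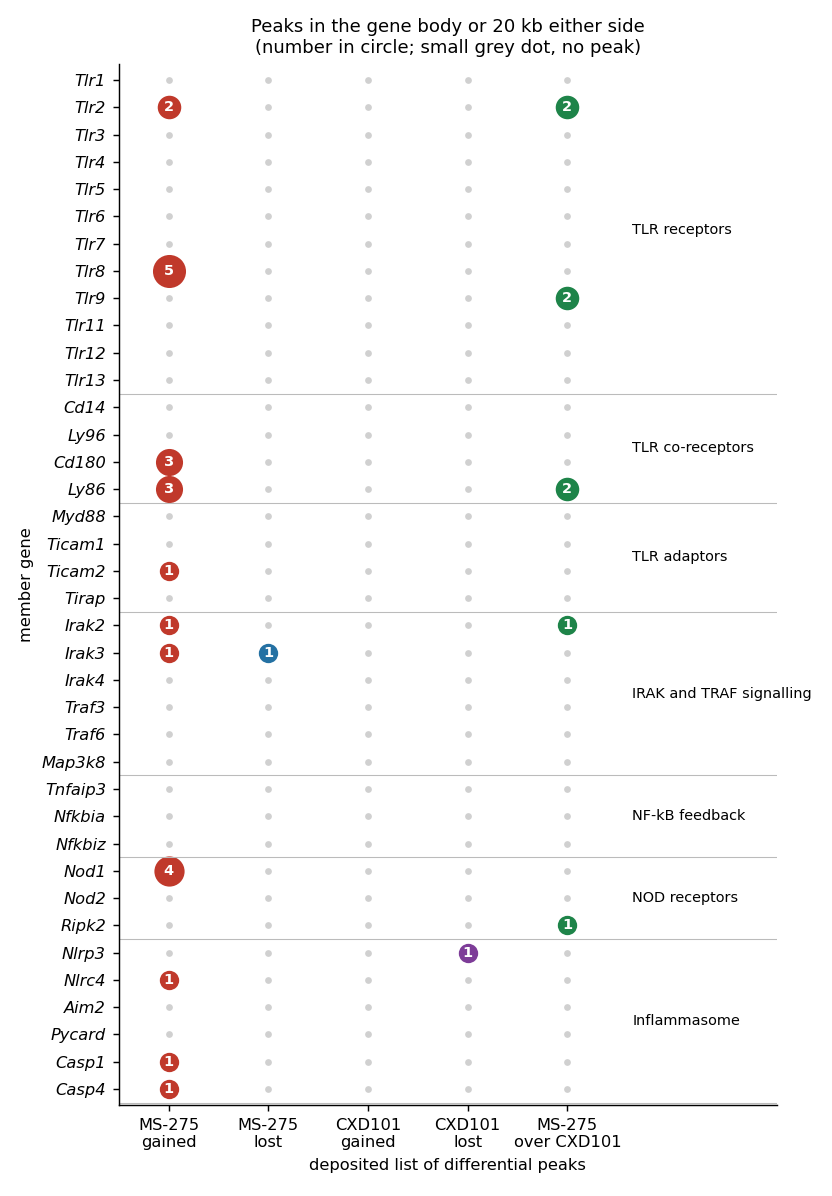
Number of differential peaks in the window of each of the 38 members (rows, grouped by role) in 5 deposited lists (columns). A coloured circle holds the number of peaks and a small grey dot stands for none. The column of CXD101 gained peaks is empty, and the rows of the NF-kB feedback genes are empty in every column.

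The windows held 22 distinct MS-275 gained peaks and 8 direct peaks, with 1 MS-275 lost and 1 CXD101 lost peak. A peak is given here by the authors' fold enrichment, the treated pileup at the summit over the control level, with 1 added to each. The control level is the largest among local averages of the control, so it can exceed the control pileup at the summit itself. The tags behind the fold were solved from the deposited values and scaled to the shallower group. At the 22 gained summits the MS-275 tags ranged from 23.6 to 114 (median 55.5) and the vehicle level from 6.44 to 52.0 (median 19.4). The fold enrichment ranged from 1.72 to 4.72 with a median of 2.56, beside a median of 2.88 over the whole MS-275 gained list. Per length, the members had 8.52 gained peaks per Mb of window (95% Poisson interval 5.34 to 12.9), beside 4.54 around all protein-coding genes. Summits that lie close together are not independent, and with peaks within 2 kb of each other counted once the 22 peaks became 13, or 5.04 per Mb (2.68 to 8.61) beside 2.95. The direct list gave 3.10 peaks per Mb (1.34 to 6.11) beside 0.889, and 6 sites or 2.33 per Mb (0.853 to 5.06) beside 0.775 after the same merging. The merging was chosen after the data were seen. The members were chosen with earlier results of these data known, so these intervals do not measure a departure from the background.

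**Figure D3:**
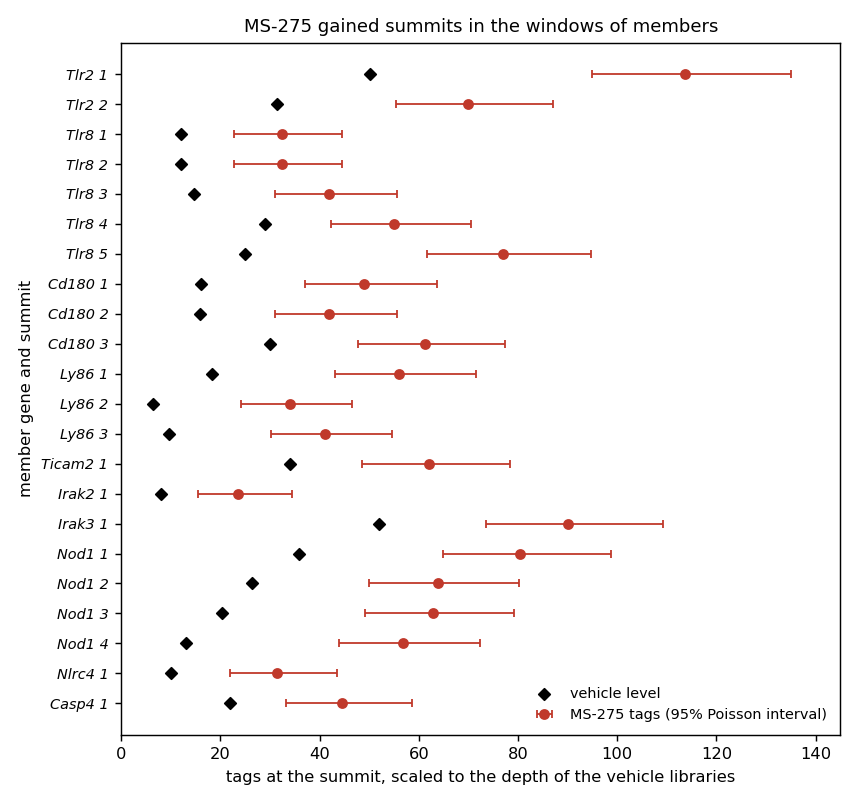
Tags at the 22 MS-275 gained summits in member windows, in the order of the roles. Red points are MS-275 tags with exact 95% Poisson intervals and black diamonds are vehicle levels, both at the depth of the vehicle libraries. Every vehicle level lies below the interval of its MS-275 tags, which the choice of listed peaks brings with it, and the highest counts are at Tlr2 (114 tags) and the widest ratio at Ly86 (34.1 tags over 6.44).

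A summit within 1 kb of an annotated transcript start was found at 5 of the 38 members in the MS-275 gained list: Tlr2, Cd180, Ly86, Ticam2 and Casp4. That is 13.2% of the members (5.75 to 27.3%) beside 5.45% of all protein-coding genes. In the direct list 2 members had one (Tlr2 and Irak2), or 5.26% (1.46 to 17.3%) beside 1.17%. The start at Irak2 is that of a retained-intron transcript inside the gene. This distance was also chosen after the data were seen, so these intervals measure no departure from the background either. The sequences around the start-proximal summits that could be printed are given here from mm10, plus strand, 100 bases either side of the summit, with each CpG dinucleotide in capitals, since CpG-rich and CpG-poor promoters are known to differ in how chromatin opens at them.
Tlr2, chr3:83841334-83841534: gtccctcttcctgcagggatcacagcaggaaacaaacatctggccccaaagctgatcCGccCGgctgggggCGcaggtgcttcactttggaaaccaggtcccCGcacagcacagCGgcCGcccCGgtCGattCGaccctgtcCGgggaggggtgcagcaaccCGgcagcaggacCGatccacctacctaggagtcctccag
Cd180, chr13:102693236-102693436: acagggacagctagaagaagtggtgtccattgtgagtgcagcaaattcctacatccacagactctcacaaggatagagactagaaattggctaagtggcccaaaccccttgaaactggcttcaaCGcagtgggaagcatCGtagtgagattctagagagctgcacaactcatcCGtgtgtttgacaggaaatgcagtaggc
Ly86, chr13:37345675-37345875: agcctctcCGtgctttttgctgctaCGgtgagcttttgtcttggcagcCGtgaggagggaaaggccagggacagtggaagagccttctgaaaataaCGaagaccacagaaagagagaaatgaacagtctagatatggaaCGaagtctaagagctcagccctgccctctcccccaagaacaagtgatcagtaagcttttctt
Casp4, chr9:5308124-5308324: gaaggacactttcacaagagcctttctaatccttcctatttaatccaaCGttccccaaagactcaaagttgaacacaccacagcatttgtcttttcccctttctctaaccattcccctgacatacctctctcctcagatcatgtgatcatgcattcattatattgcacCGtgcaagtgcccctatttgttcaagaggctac
The Tlr2 sequence held 12 CpG dinucleotides at 65.2% GC, whereas those of Cd180, Ly86 and Casp4 held 3, 5 and 2 at 48.3%, 49.3% and 43.3% GC. Over all MS-275 gained summits the medians were 2 CpG and 49.8% GC, so only the Tlr2 summit of these 4 stood well above the list's median in both.

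**Figure D4:**
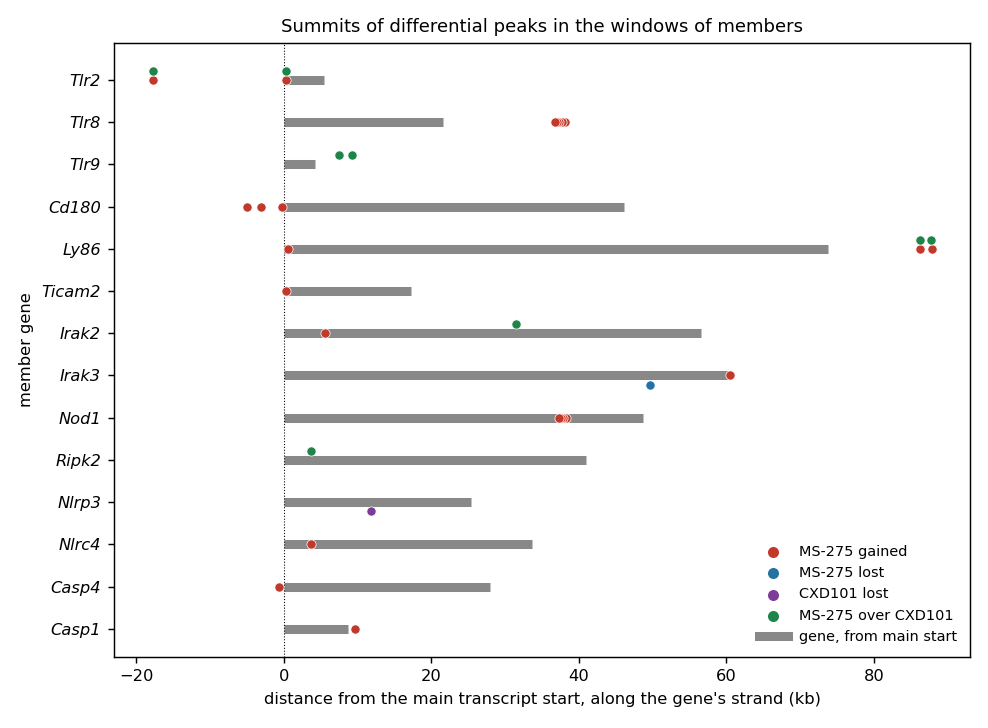
Positions of the differential summits along the members that have one, in kb from the main transcript start in the direction of transcription (grey bar, annotated gene). Colours give the list, with direct peaks drawn above and lost peaks below the bar. Summits sit within 1 kb of the start at Tlr2, Cd180, Ly86, Ticam2 and Casp4, inside the gene at Irak2, Irak3, Nod1, Ripk2, Nlrp3 and Nlrc4, and beyond its end at Tlr8, Tlr9, Ly86, Irak3 and Casp1. The summits farthest upstream are those of Tlr2 (17.8 kb) and Cd180.

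Of the 12 TLR genes, Tlr2 and Tlr8 had MS-275 gained peaks and Tlr2 and Tlr9 had direct peaks. Tlr2, the surface receptor for bacterial lipoproteins (chr3:83836272-83841767, minus strand), had its gained summit in intron 1, at 333 bp from the start. There MS-275 gave 114 tags (95% Poisson interval 95 to 135) over a vehicle level of 50.2, which is 2.24-fold with an authors' −log10 p of 14.1. A further gained summit lay 17.8 kb upstream (chr3:83859414-83859650), with 69.9 tags over 31.4 and 2.19-fold. Both sites were also higher with MS-275 than with CXD101. On the vehicle depth the direct summit near the start had 107.5 MS-275 tags over a CXD101 level of 60.7, beside the vehicle level of 50.2, and the upstream site had 69.9 over 34.5, beside 31.4. The direct fold enrichments were 1.76 and 2.0, and at both Tlr2 sites CXD101 stood nearer to vehicle than to MS-275. A site enters the direct list only where CXD101 is well below MS-275, so this order follows largely from the choice of sites.

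Tlr8, a receptor of endosomes related to the single-stranded RNA sensor Tlr7, had 5 gained summits within 1 stretch beyond its 3′ end on the X chromosome. They lay 16.9 to 18.2 kb from the start of the next gene, Tmsb4x, which encodes an actin-binding peptide, so their nearest protein-coding start was not that of Tlr8. Their fold enrichments ranged from 1.87 to 3.0. The strongest (chrX:167227425-167227629) had 76.9 tags (61.7 to 94.8) over 25 and a −log10 p of 16.2. Tlr9, the endosomal receptor for unmethylated CpG DNA (chr9), had no gained peak within 20 kb. Its direct peaks (chr9:106229900-106230113 and chr9:106231679-106231928) were 2.43-fold and 2.2-fold, with 51.6 over 20.8 and 32.4 over 14.2 tags on the vehicle depth. Both lay nearer to the start of Alas1, a heme synthesis gene, at 7043 and 5262 bp, than to that of Tlr9, at 7443 and 9224 bp. The nearest MS-275 gained peak was 20.7 kb from Tlr9.

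Among the 4 co-receptors, Cd180 and Ly86 had gained peaks, and Cd14 and Ly96 had none. CD180 is a TLR4-like receptor without a signalling domain of the TLR kind, and Ly86 encodes MD-1, the protein that pairs with CD180 at the cell surface. Cd180 (chr13, plus strand) had 3 gained summits upstream of its start, at 4977, 3062 and 222 bp. The MS-275 tags there were 49.0 over 16.2, 42.0 over 16.0 and 61.2 over 30.0, and the fold enrichments were 2.90, 2.53 and 2.01. The fold was thus smallest at the summit next to the start, where the vehicle level was highest. The remaining upstream summits of Cd180 are shown because they fall in the 5 kb the study counted as promoter.
Cd180 at 4977 bp, chr13:102688481-102688681: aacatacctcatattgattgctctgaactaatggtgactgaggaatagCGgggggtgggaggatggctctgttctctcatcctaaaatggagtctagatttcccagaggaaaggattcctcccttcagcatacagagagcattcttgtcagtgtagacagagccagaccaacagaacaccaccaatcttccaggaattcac
Cd180 at 3062 bp, chr13:102690396-102690596: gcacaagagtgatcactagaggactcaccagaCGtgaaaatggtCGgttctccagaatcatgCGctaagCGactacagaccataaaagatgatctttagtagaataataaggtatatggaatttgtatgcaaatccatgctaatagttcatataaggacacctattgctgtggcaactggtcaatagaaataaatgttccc
They held 1 and 4 CpG dinucleotides. No direct peak lay in the window of Cd180, and the nearest one was 27.2 kb away.

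Ly86 (chr13, plus strand), on the same chromosome, had a gained peak in intron 1 (chr13:37345670-37345918), 567 bp from its main start. It had 56.0 tags (43.1 to 71.5) over 18.4 and 2.94-fold. A pair of gained peaks lay beyond the 3′ end of the gene, with summits 86.2 and 87.8 kb from the main start, and the nearest annotated gene to the first was the noncoding Gm4035 at 3701 bp. Their fold enrichments were 4.72 (34.1 tags over 6.44), the highest of any member peak, and 3.97 (41.1 over 9.60), the next after the best Nod1 summit. Both were direct peaks as well, at 4.23-fold and 3.18-fold. On the vehicle depth CXD101 stood at 7.39 and 12.3, close to the vehicle levels of 6.44 and 9.60, while MS-275 stood at 34.1 and 41.1. The levels at the first peak lay near the lowest in their lists: 6.44 beside 5.84 for vehicle, and 8.40 beside 6.64 for CXD101 before rescaling. The fold enrichments at that peak therefore rest on control levels near the floor. The first direct peak of Ly86 had the highest −log10 p of any direct peak at a member, 13.8, and its sequence, with CpG in capitals, is therefore shown.
Ly86 downstream, chr13:37431348-37431548: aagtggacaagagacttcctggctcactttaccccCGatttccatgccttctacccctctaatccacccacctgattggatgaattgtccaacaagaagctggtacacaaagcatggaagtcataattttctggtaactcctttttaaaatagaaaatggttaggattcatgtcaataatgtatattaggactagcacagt
It held 1 CpG at 40.3% GC, fewer CpG than the median of 3 over all direct summits.

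Of the 4 adaptors, Ticam2 had a peak and Myd88, Ticam1 and Tirap had none. TICAM2, also named TRAM, carries the signal of TLR4 from endosomes to TICAM1. The gained summit of Ticam2 lay in the 5′ UTR in exon 1, 241 bp from the start, with 62.1 tags (48.5 to 78.3) over 34.0. At 1.80-fold it was the smallest gained difference at a member after the 1.72-fold of Irak3.

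Of the 6 IRAK, TRAF and MAP3K genes, Irak2 and Irak3 had peaks. IRAK2 is a kinase-like protein that keeps TLR signalling going, and IRAK3, also named IRAK-M, is a monocyte inhibitor of the same step. Irak2 (chr6, plus strand) had a gained peak in intron 1 (chr6:113644037-113644367) with 23.6 tags (15.6 to 34.3) over 8.0, or 2.73-fold. Its direct peak was at another site, in intron 3 (chr6:113669803-113670213), with 35.8 MS-275 tags over 14.1 for CXD101 on the vehicle depth and 2.46-fold. Irak3 (chr10, minus strand) was the only member with peaks in both directions under MS-275. Next to its 3′ end (chr10:120141000-120141257) MS-275 gave 90.1 tags over 52.0, or 1.72-fold. The nearest protein-coding start to this gained peak was that of Helb, at 28199 bp, against 29192 bp for Irak3. In intron 8 of the gene (chr10:120151944-120152145) vehicle gave 39 tags (27.7 to 53.3) over an MS-275 level of 9.79, a 3.71-fold loss with a −log10 p of 12.4. The sequence at that loss is shown because it is the only MS-275 lost site among the members.
Irak3 lost, chr10:120151937-120152137: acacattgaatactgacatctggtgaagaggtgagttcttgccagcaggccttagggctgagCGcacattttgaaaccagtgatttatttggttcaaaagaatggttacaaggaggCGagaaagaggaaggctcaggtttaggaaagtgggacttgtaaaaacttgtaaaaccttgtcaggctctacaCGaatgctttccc

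Of the NOD group, Nod1 had gained peaks, Ripk2 had a direct peak and Nod2 had none. Nod1 (chr6, minus strand), the cytosolic sensor of diaminopimelic acid peptidoglycan, had 4 gained summits within introns 7 and 8 (chr6:54934210-54935512 from the first base to the last). They lay 37.3 to 38.3 kb from its main start, but 4502 to 5540 bp from the nearest annotated start of the gene. The fold rose along the stretch while the MS-275 tags did not: the fold enrichments were 2.21, 2.37, 2.99 and 4.13, with 80.4, 63.8, 63.0 and 56.8 MS-275 tags. The vehicle levels at the same summits were 35.8, 26.4, 20.4 and 13.0. The last summit had the highest −log10 p of any member peak, 18.6, and ranked 1052 of the 8480 MS-275 gained peaks.
Nod1, chr6:54935249-54935449: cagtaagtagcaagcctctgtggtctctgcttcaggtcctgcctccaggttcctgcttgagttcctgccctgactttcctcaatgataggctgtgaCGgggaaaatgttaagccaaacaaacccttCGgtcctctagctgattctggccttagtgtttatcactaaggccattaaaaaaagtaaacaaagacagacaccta
No direct peak lay in the window of Nod1, so the difference between MS-275 and CXD101 there did not pass the authors' threshold. Ripk2 (chr4, minus strand), the kinase next to NOD1 and NOD2, had a direct peak in intron 1 (chr4:16159870-16160083), 3669 bp from its start. It had 101 MS-275 tags over a CXD101 level of 48.9 on the vehicle depth, 2.06-fold with a −log10 p of 12.0. No list over vehicle had a peak there, and the nearest MS-275 gained peak was 40.1 kb away.

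In the inflammasome group 4 of 6 members had a peak, with Casp1 and Casp4 counted from a single one, and Aim2 and Pycard had none. Nlrp3, the sensor of ion fluxes and crystals (chr11, plus strand), had a CXD101 lost peak in intron 5 (chr11:59554465-59554698), with 58 vehicle tags (44.0 to 75.0) over a CXD101 level of 20.8. It was 2.71-fold with a −log10 p of 11.3, and it was the only peak of a CXD101 list against vehicle at any member. Nlrc4, which responds to flagellin through NAIP proteins (chr17, minus strand), had a gained peak in intron 1. Its summit lay 3703 bp from the main start and 2362 bp upstream of another annotated start, within the 5 kb the study counted as promoter. The peak had 31.5 tags (22.0 to 43.6) over 10.0 and 2.95-fold. Casp4 encodes the mouse caspase-11, the cytosolic receptor of lipopolysaccharide. Its gained peak (chr9:5308002-5308293) lay 604 bp upstream of a transcript start, with 44.6 tags (33.2 to 58.6) over 22.0 and 1.98-fold. The same peak fell in the window of the neighbouring Casp1, 9707 bp from its start, and is the reason Casp1 is counted. The sequence of the Nlrp3 peak is given as that of the only loss with CXD101.
Nlrp3 lost, chr11:59554463-59554663: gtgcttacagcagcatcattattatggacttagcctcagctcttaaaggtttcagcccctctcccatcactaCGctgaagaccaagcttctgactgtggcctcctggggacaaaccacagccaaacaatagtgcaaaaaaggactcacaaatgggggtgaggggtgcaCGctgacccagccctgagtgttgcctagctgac
It held 2 CpG dinucleotides at 52.2% GC.

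At the 8 direct summits the MS-275 tags and CXD101 levels were set side by side on the vehicle depth. The MS-275 tags ranged from 32.4 at Tlr9 to 107.5 at Tlr2. A vehicle level was known at 4 of the 8 summits, those of Tlr2 and Ly86, which were also gained over vehicle. It was that of the gained summit, which lay up to 48 bp from the direct one. The vehicle level lay below the CXD101 level at each, from 6.44 against 7.39 at Ly86 to 50.2 against 60.7 at Tlr2. Sites of both lists have both levels below MS-275 by selection. The levels carry no interval, so the order of vehicle and CXD101 was not tested. The gained and direct lists share the MS-275 libraries and the lists over vehicle share the vehicle libraries, so these values are not independent. At Tlr9, Irak2 and Ripk2 the direct sites were in no list over vehicle, and the vehicle level there is not known.

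**Figure D5:**
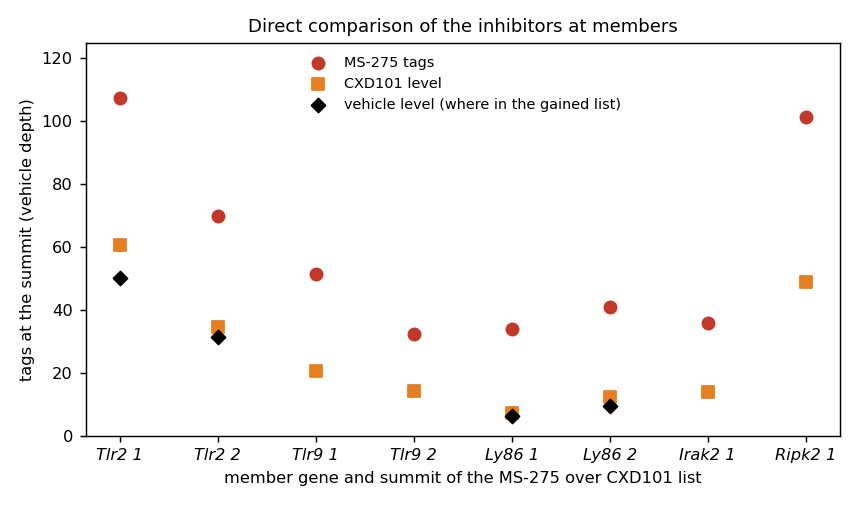
Tags at the 8 summits of the direct list in member windows, at the depth of the vehicle libraries. Red circles are MS-275 tags, orange squares CXD101 levels and black diamonds vehicle levels where the site was also MS-275 gained. At the Tlr2 and Ly86 summits the orange squares lie close above the black diamonds, for example 7.39 and 6.44 at the first Ly86 summit, where MS-275 had 34.1. Both levels lie below MS-275 at these summits by selection.

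Motif letters were searched on both strands within 100 bp of each summit: AP-1 (TGANTCA), PU.1 (GAGGAAGT), C/EBP (TTGCNNAA), IRF by a spaced GAAA repeat, CRE (TGACGTCA) and NF-kB by its consensus. Of the 22 gained summits at members, 2 held a C/EBP match (9.09%, beside 9.02% of all MS-275 gained summits) and 1 held an NF-kB match (4.55% beside 2.44%). The C/EBP letters were TTGCCAAA at Irak2 and TTCAGCAA at Nod1, the latter on the other strand, and the NF-kB letters were GGGAGACCCC at the strongest Tlr8 summit. AP-1 letters were found at 0 of 22, beside 4.55% of all gained summits. PU.1, IRF and CRE letters were also found at 0 of 22, beside 1.83%, 2.71% and 0.165%. At shares this small, 22 summits are too few for a count of 0 to show a lack of these letters. Of the 8 direct summits, that of Irak2 held the NF-kB letters GGGGCATCCC, beside 3.15% of all direct summits. That of Ripk2 held the C/EBP letters TTGAGCAA, a match on the other strand, beside 8.12% of all direct summits. None of the printed sequences held a match.

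A further 57 genes of the same pathways were taken from lists that do not include the members. MS-275 gained peaks lay in the windows of 12 of the 57 (21.1%), MS-275 lost peaks of 2, CXD101 gained peaks of 1, CXD101 lost peaks of 4 and direct peaks of 8 (14.04%). The shares of all protein-coding genes were 18.8% for gained and 6.68% for direct peaks. The gained share of these genes was thus close to the background. Their direct share stood above its background but rests on 8 genes, and neither share has an interval here. Other NF-kB feedback genes had gained peaks at 4 of 9 (Nfkbid, Nfkbie, Bcl3 and Tnip3) and direct peaks at 4 of 9 (Nfkbid, Nfkbie, Tnip1 and Tnip3). The gained peaks of Nfkbid, Nfkbie and Bcl3 lay nearer to the starts of Hcst, Slc29a1 and Cblc. Tnip3, an A20-binding inhibitor of NF-kB, had its gained summit 61 bp from the start, with 44.6 MS-275 tags over 8.42 and 4.84-fold. Gained peaks were found at 1 of 8 NF-kB core genes, 2 of 14 other TLR signalling genes, 4 of 19 other NLR and pyroptosis genes and 1 of 7 nucleic acid sensors. The core gene was Nfkb1, which encodes the p50 precursor, with 6 gained summits of 2.05-fold to 4.17-fold. Ikbkb, the kinase that frees NF-kB from its inhibitor, had a site 615 bp from a start that was lost with both inhibitors: 101 vehicle tags over 23.6 with MS-275 and over 39.6 with CXD101, against the same vehicle libraries. Nlrp1a, an inflammasome sensor, was the only gene of either set with a CXD101 gained peak (40.5 tags over 10.0, 3.77-fold), and the same site was MS-275 gained at 4.23-fold against the same vehicle libraries, with a further MS-275 gained peak of 3.23-fold next to it. Mefv and Nek7, both regulators of inflammasomes, had gained summits at 90 and 141 bp from a start, of 2.19-fold and 1.90-fold.

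Markers of M-MDSCs and of other cell types of the tumor were counted in the same way, since the lists give no levels by which to check identity. The gate leaves out Ly-6G+ cells, and the study describes the sorted cells as of high purity. MS-275 gained peaks lay at 6 of 11 M-MDSC or monocyte markers (2 also had MS-275 lost peaks), 7 of 10 neutrophil or PMN-MDSC markers, 2 of 9 macrophage, 1 of 6 dendritic cell, 3 of 8 T cell, 1 of 6 NK cell and 1 of 8 hepatocyte or hepatoma markers, beside 18.8% of all protein-coding genes. The 3 T cell markers (Cd3d, Cd3e and Cd3g) were counted from a single peak. Among the neutrophil markers, S100a8 was counted only from a peak that also counted for S100a9. Ltf, another of them, had an MS-275 lost peak (2.34-fold) and no gained one, and that peak lay nearer to the start of Ccrl2. Several other marker peaks also lay nearer to the start of another gene. Among them were the gained peaks of Cx3cr1 and F10 and the lost peaks of Itgam and Cx3cr1. B cell and erythroid markers had 0 of 5 and 0 of 6. Over the 69 markers, 21 had MS-275 gained, 5 MS-275 lost, 0 CXD101 gained, 4 CXD101 lost and 6 direct peaks. Neutrophil marker windows thus gained peaks with MS-275 in the same list as the TLR and inflammasome genes, and the part of other cell types in the values above was not tested. In pooled bulk libraries, more cells with an open site and a more open site per cell cannot be told apart.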

How the data were processed

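ATAC-seq libraries of sorted tumor M-MDSCs (Vehicle, MS-275 and CXD101, 2 each, grouped by the treatment label) were aligned by the authors to mm10 with Bowtie2, and groups were compared with MACS2 2.2.7.1 on pooled libraries, per the labels and the study's methods. No model and a shift of 0 were used, so reads were not moved to the transposase cut site, which can displace a summit by a few bases.

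The authors deposited, for each peak, a fold enrichment (a linear ratio of treated pileup to control level), a −log10 p-value and −log10 q-value. An integer score made from the q-value and the summit offset were also deposited. No peak had a q-value above 0.05, whereas the study's methods name a cutoff on the p-value. Other tables of the study were not analysed here, and 0 columns of per-sample values were left unmapped.

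Tags and control levels were solved from the fold enrichment and p-value by the rules of MACS2 (pseudocount 1), and all 11800 peaks were recovered. In simulated lists 100% of the peaks were recovered for each comparison tried (1441 for CXD101 gained, 1429 each for MS-275 gained and MS-275 lost, 1428 for MS-275 over CXD101). As control level MACS2 takes the largest among its local averages, which makes it an upper bound on the true pileup. Absolute read numbers were not used. Intervals (95%; Wilson for shares, exact Poisson for tags and densities) cover counting error only, and PCR copies are not independent molecules. Beside a count of 0 stands the share that 3 counts give.

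Genes came from GENCODE M21 on chromosomes 1 to 19 and X, and sequence from GRCm38.p6. Of the members, 29 of 38 had another protein-coding gene in their window, and the windows of Tlr1 and Tlr6, and of Casp1 and Casp4, overlapped. The median window was 61.6 kb for members and 57.4 kb for protein-coding genes. The members, the pathway and marker lists and the motifs were chosen with earlier results of these data known. Every member is named with its peaks. Fold enrichments and tags were given for lost and direct peaks, and for the 3 gained peaks with the highest −log10 p. The same was done for gained peaks in a gene body or 5 kb upstream of a start that were nearest to the member. Coordinates and −log10 p were given for only some of these peaks. Sequences were given for the strongest member peak of each list and for peaks near starts, except where they are not reported here. No test was run, since there is no value per library. Alternatives changed the window, the overlap rule, the q-value (0.01) and fold (2) thresholds, the gene set, the pseudocount and the motif window. Python 3.11.15, numpy 2.4.6, pandas 2.3.3, scipy 1.17.1, pysam 0.24.0 and matplotlib 3.10.9 were used.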

Additional observations from a re-analysis of the deposited data

Results flagged for a closer look

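The 8 distinct peaks that were higher with MS-275 than with CXD101 lay in the windows of Tlr2, Tlr9, Ly86, Irak2 and Ripk2. They were singled out because they mark a difference between the MS-275 and CXD101 groups, called by the authors' MACS2 test on pooled libraries. In these windows 0 peaks were higher with CXD101. The imbalance is that of the whole lists, which held 1650 and 2 peaks and reached 6.68% and 0.0138% of all protein-coding genes. That test compares the pooled libraries and has no replicate check, so the part of other differences between the pools was not tested.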

How the results depend on the processing

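Of the member and peak counts of the MS-275 gained and direct lists under the alternatives, 20 stayed within 1.5 times of the reported count and 18 did not. Those that stayed included the counts for q-values under 0.01, for summits in place of any overlap and for peaks nearest to the member's own start. For the lost lists, which rest on 1 peak each, 26 stayed and 8 did not. The 34 counts of the CXD101 gained and CXD101 over MS-275 lists were 0 under every alternative, which says nothing about stability. The window decided most of the counts that moved. For MS-275 gained peaks, members with a peak and distinct peaks were 6 and 9 in gene bodies only, 17 and 39 within 50 kb, and 3 and 5 in the 5 kb upstream of a start. With 5 kb either side there were 14 gained peaks, and at a fold enrichment of at least 2 there were 7 members. For direct peaks the pairs were 3 and 3 in gene bodies, 9 and 14 within 50 kb, and 0 and 0 upstream, with 5 peaks within 5 kb. The MS-275 lost and the CXD101 lost lists each gave 2 members and 2 peaks within 50 kb and 0 upstream. The gene set moved the comparison density of MS-275 gained peaks to 4.05 per Mb over all annotated genes. Of the other values (shares of all genes and motif shares), 7 moved and 11 did not. After the data were seen, merging peaks within 2 kb (13 gained peaks) and a distance of 1 kb from a start (5 members gained, 2 direct) were added. No paired analysis was possible because MACS2 saw the libraries of a group as 1 pool, so neither replicate numbers nor leaving out a library could be tried. Depth limits the lists to differences of about the sizes given for each vehicle level, so smaller changes at the members without peaks would not appear.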
